A study of Mus musculus with 12 samples.

Results

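Zinc finger genes Zfp700 to Zfp999 are mouse protein-coding genes whose symbol is Zfp with a number in that range in the GENCODE M21 annotation of the GRCm38 genome, and 128 of 21853 annotated protein-coding genes met this rule. The rule used the gene symbol alone and no measured value. Their chromatin was examined in crypts and villi of the mouse small intestine by ChIP-seq, in a study of histone H3 tail cleavage during intestinal differentiation. Crypts hold the stem and dividing cells of the epithelium and villi its differentiated cells. Villi were scraped from opened intestine with glass coverslips and crypts were released with EDTA, so both are tissue fractions and not sorted cell types. Each group was 1 library of one compartment and one antibody (H3K9me3, H3K4me3, H3K4me1 or H3K27me3), all with 5% Drosophila S2 chromatin added. No treatment is named for any group, and the strain, sex, age and number of the mice are not given in the sources used here. With 1 library per group there was no replicate, so the compartments were not tested against each other and no p-value is given. In bulk tissue, a mark in fewer cells and less of it in each cell cannot be told apart. The values are lists of peaks on mm10, the browser name of GRCm38, each with a score taken as −log10 p. Reads are not counted in them, so sequencing depth is unknown.

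Most genes of this kind encode C2H2 zinc fingers, short folds that each hold 1 zinc ion between a pair of cysteines and a pair of histidines and that stand in arrays that read DNA. Many also encode a KRAB domain, through which the protein recruits TRIM28 (KAP1) and with it the H3K9 methyltransferase SETDB1 to its targets, often transposable elements. The genes lie in clusters that grew by duplication, the finger array usually sits in the last coding exon, and in other cell types the 3′ ends of such genes are known to carry H3K9me3 themselves. H3K9me3 marks repressed chromatin, H3K4me3 active or poised promoters, H3K4me1 enhancers and promoter flanks, and H3K27me3 chromatin repressed by Polycomb.

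Fingers are printed here because the H3K9me3 peaks of these genes lay over them. Each is read on the coding strand of the GRCm38 reference (RefSeq assembly GRCm38.p6), 5′ to 3′, with the codons of the zinc-binding cysteines and histidines in capitals. The first pair lay wholly under an H3K9me3 peak in both compartments, at chr9:22278999-22279061 on the minus strand and at chr10:82060565-82060627 on the plus strand. The Zfp930 finger, at chr8:69228132-69228194 on the plus strand, lay wholly under a peak in crypts and only in part in villi. The Zfp949 finger, at chr9:88569270-88569332 on the plus strand, lay under a peak in villi only. The last, at chr2:175382367-175382429 on the plus strand, lay under no peak and occurs in identical form in 4 members.
Zfp810 finger 1: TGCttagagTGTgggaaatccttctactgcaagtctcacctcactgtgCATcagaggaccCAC
Zfp873 finger 9: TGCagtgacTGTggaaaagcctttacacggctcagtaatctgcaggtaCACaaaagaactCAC
Zfp930 finger 3: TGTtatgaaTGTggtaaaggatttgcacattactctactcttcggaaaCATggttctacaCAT
Zfp949 finger 1: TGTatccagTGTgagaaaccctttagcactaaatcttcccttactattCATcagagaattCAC
Zfp968 finger 2: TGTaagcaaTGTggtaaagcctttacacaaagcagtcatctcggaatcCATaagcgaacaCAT

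The members were zinc finger genes by sequence as well as by name. In translations of their longest annotated coding sequences, 114 of 128 held at least 3 C2H2 fingers, with a median of 11 fingers per protein and a highest number of 23, and 103 held a stretch that resembles the first part of a KRAB domain. The genes named Zfp1 to Zfp699 had a similar median of 10 fingers but a KRAB-like stretch in 104 of 237. Of the 21488 other protein-coding genes, 260 held at least 3 fingers. The last coding exon had a median length of 2249 bp in the members and 963 bp in these other genes. Because a longer exon is a larger target, shares of bases are given below beside shares of genes.

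The labelled compartments were checked on marker genes. H3K4me3 was called at 5 of 6 crypt markers in crypts and 4 in villi, with Olfm4, a stem cell marker, called in crypts only, and at 7 of 7 villus markers in both. By H3K4me3 the lists thus differ at Olfm4 alone among the crypt and villus markers. H3K4me1 was called at 7 villus markers in crypts and 6 in villi, and the one without it in villi was Fabp1, a fatty acid binding protein of enterocytes. Of 5 markers of other cells, 0 had H3K4me3 in crypts and 3 in villi, Ptprc and Cd3e of immune cells and Col1a1 of fibroblasts, whereas Acta2 and Pecam1 had none in either. The part of such cells in the calls at the zinc finger genes was not tested.

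H3K9me3 peaks lay on the body of 37 of the 128 members in crypts, which is 28.9% (95% Wilson interval 21.8 to 37.3%), and of 32 in villi, which is 25.0% (18.3 to 33.2%). Of all protein-coding genes, 2.87% had such a peak in crypts and 2.35% in villi. The members' shares were thus several times the shares among all genes in each compartment, and the intervals, which cover counting error only, did not overlap those of all genes. Zfp1 to Zfp699 reached 18.1% (13.8 to 23.5%) in crypts. In villi they reached 13.5% (9.73 to 18.4%). Both values are below the members', with intervals that overlap theirs. Neighbouring members share sequence and chromatin, and the intervals treat the genes as independent, so they are too narrow.

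On the last coding exon the contrast with other genes was wider. An H3K9me3 peak touched this exon in 31 members in crypts and 26 in villi, 24.2% (17.6 to 32.3%) and 20.3% (14.3 to 28.1%), against 0.604% of all protein-coding genes in crypts and 0.563% in villi. Of the members with a gene-body peak, 83.8% in crypts and 81.2% in villi had it on this exon. Over all protein-coding genes it was 132 of 627 in crypts and 123 of 514 in villi. Zfp1 to Zfp699 resembled the members, with 34 of 43 and 24 of 32. Of all 237 Zfp1 to Zfp699 genes, 14.3% (10.5 to 19.4%) in crypts and 10.1% (6.90 to 14.6%) in villi had a peak on this exon. Within 1 kb of the annotated gene end, peaks were called in 21 members in crypts and 17 in villi, 16.4% (11.0 to 23.8%) and 13.3% (8.46 to 20.2%). All protein-coding genes reached 0.503% and 0.403% there, and Zfp1 to Zfp699 7.17% (4.53 to 11.2%) and 3.80% (2.01 to 7.06%). With this window widened to 5 kb it was 36 and 31 members, against 1.30% and 1.16% of all protein-coding genes. An H3K9me3 peak within 1 kb of a start site, counting the alternative starts inside a gene, was found in 9 members in each compartment, against 0.380% of all protein-coding genes in crypts and 0.311% in villi. Zfp850, Zfp873, Zfp930, Zfp936, Zfp950 and Zfp981 had one there in both.

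**Figure D1:**
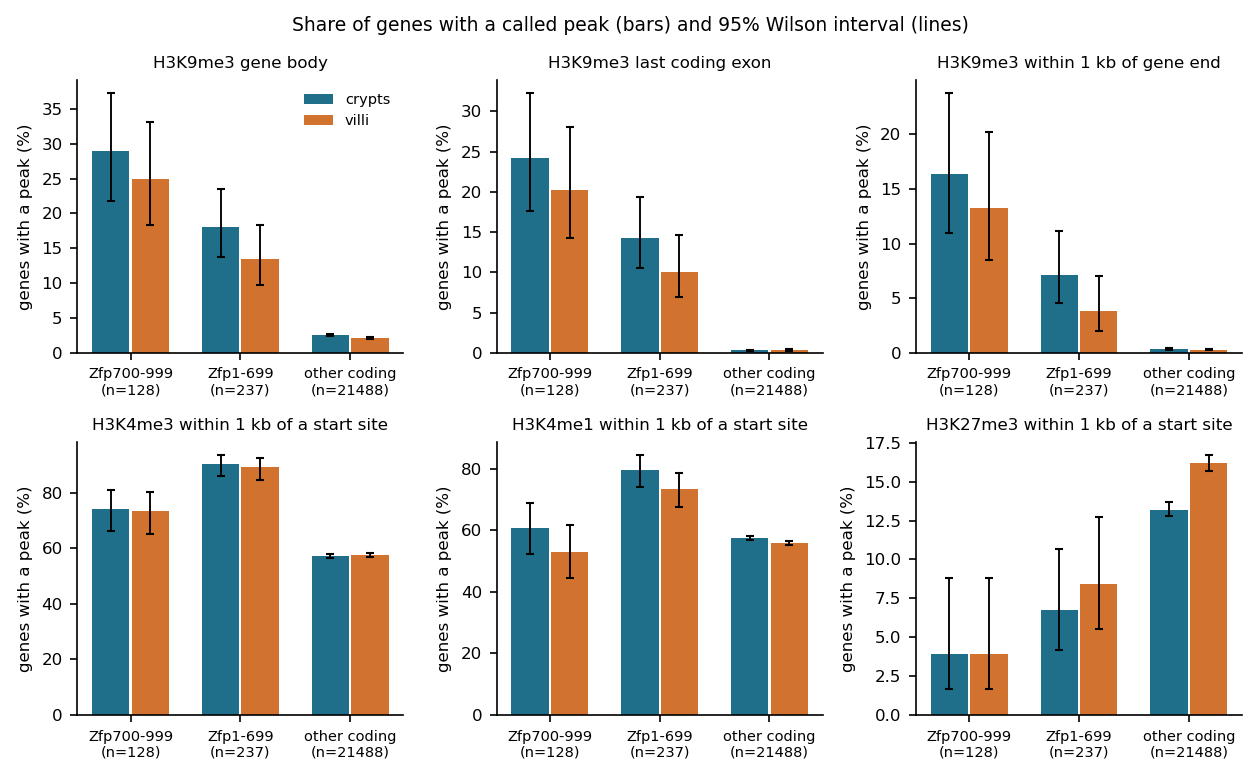
Share of genes with a called peak (%, vertical axis) in 3 gene groups for 6 combinations of mark and region, with crypts and villi as separate bars from 1 library each and lines for the 95% Wilson interval. The H3K9me3 shares were highest in Zfp700 to Zfp999, at 28.9% in crypts on the gene body, whereas their H3K27me3 share of 3.91% was the lowest of the 3 groups.

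Among all genes with H3K9me3 on the last coding exon, zinc finger genes made up the larger part. In crypts there were 132 such genes, of which 31 were members, 34 were Zfp1 to Zfp699 and 23 were other genes with at least 3 C2H2 fingers. In villi there were 123, of which 26 were members, 24 Zfp1 to Zfp699 and 20 others with fingers. These groups together gave 66.7% of the genes in crypts and 56.9% in villi. Of the other genes with fingers, 8.85% were called in crypts and 7.69% in villi, and of the 21228 other genes without them 0.207% and 0.250%.

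The peaks covered the distal part of the gene more than the rest. Each gene body was divided into 10 equal segments from start to end. Of the bases in segment 10, 11.2% lay under H3K9me3 peaks in crypts and 6.55% in villi, against 0.495% and 0.0358% in segment 1. Segment 9 followed with 7.24% in crypts and 4.23% in villi. A smaller rise stood in segment 3, at 5.00% in crypts and 1.99% in villi. Over whole gene bodies 3.56% of the members' bases were covered in crypts and 2.05% in villi, whereas over all protein-coding genes it was 0.124% and 0.0994%. Zfp1 to Zfp699 were also most covered in the distal part, with 4.35% in crypts and 3.01% in villi in segment 9. Their segment 10 had 3.39% and 2.00%.

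**Figure D2:**
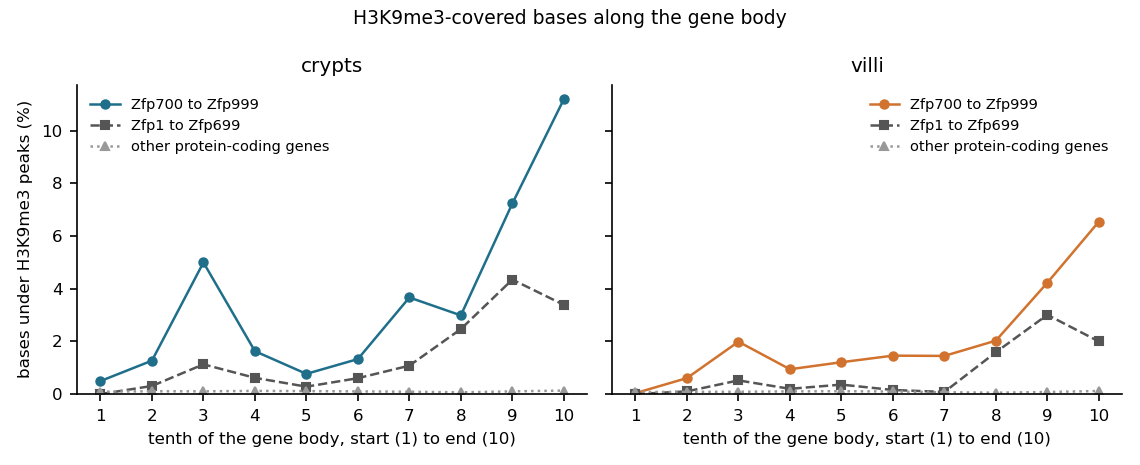
Share of bases under H3K9me3 peaks (%, vertical axis) in each of 10 equal segments of the gene body from start to end (horizontal axis), in crypts and villi, for the members, Zfp1 to Zfp699 and other protein-coding genes, summed over the genes of each group. In the members the line ends at 11.2% in crypts and 6.55% in villi, and other protein-coding genes stay near 0 along the whole gene.

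Among the exons of the members, the last coding exon was the most covered. Of the bases of the members' last coding exons, 16.3% were covered in crypts and 11.3% in villi. This was 1.64% and 0.962% in their other exons and 2.25% and 1.12% in their introns. In Zfp1 to Zfp699 the last coding exons were covered to 11.2% and 6.68%, and the other exons to 0.427% and 0.578%. Over all protein-coding genes it was 0.628% and 0.438%, and 0.165% and 0.147% in the other exons. The lean toward the last coding exon was thus not particular to the members. Within the members' last coding exons, the coding bases were covered to 22.7% in crypts and 17.2% in villi. The bases after the stop codon or otherwise not coding were covered to 9.52% and 5.13%. Of the 1322 fingers encoded within a single exon, 319 lay wholly under a peak in crypts (24.1%) and 244 in villi (18.5%). Finger bases were covered to 24.3% in crypts and 18.7% in villi, and the members' other coding bases to 14.3% and 10.5%. Those other bases include the little covered exons before the last. The finger shares lay close to the 22.7% and 17.2% of all coding bases of the last coding exon. Whether fingers differ from the rest of that exon was not tested. The fingers belonged to 119 members, of which 26 had a finger touched by a peak in crypts and 23 in villi.

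Members with many fingers were called more often. With 10 to 14 fingers, 18 of 54 members had H3K9me3 on the last coding exon in crypts and 15 in villi, and with 15 or more it was 9 of 24 in each. With 5 to 9 fingers it was 2 of 33 in crypts and 1 in villi, and with fewer, 2 of 17 and 1. The last coding exon was longer in called members, with a median of 2494 bp against 2115 bp in members without a call in crypts, and the parts of finger number and exon length were not tested. A KRAB-like stretch was found in 30 of the 31 members called on this exon in crypts and 25 of 26 in villi. Among the members not called it was found in 73 of 97 and 78 of 102. These are descriptions of 128 related genes, not tests.

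By the bases of both compartments together, the most covered gene was Zfp873, a KRAB-like gene with 16 fingers at chr10:82048123-82064745 on the plus strand. H3K9me3 peaks covered 12121 bp of its body in crypts and 7348 bp in villi, and 100% and 85.5% of its last coding exon. All its fingers, finger 9 printed above among them, lay wholly under peaks in both compartments. Its H3K4me3 peak, at chr10:82047572-82048966 in crypts and chr10:82047620-82049002 in villi, stood apart from these at the gene start. Both marks were thus called on the same gene in the same fraction. Whether they occur in the same cells was not tested.

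Zfp930, with 12 fingers at chr8:69209038-69230536 on the plus strand, had 9955 bp under peaks in crypts and 3600 bp in villi. In crypts a single peak of 8467 bp, chr8:69222977-69231443, covered its whole last coding exon. In villi a pair of peaks of 2418 and 1182 bp lay there with a gap between them, and fingers 3 to 8 fell in whole or in part into the gap. The Zfp930 finger printed above is one of those. Zfp850, with 16 fingers at chr7:27984854-28014115 on the minus strand, had the widest peak over a member in either list, 8876 bp in crypts, and 4 separate peaks of 547 to 1122 bp in villi.

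Zfp810, with 10 fingers at chr9:22276748-22307648 on the minus strand, had the highest score over any member in crypts. Its single peak scored 30.5 there, rank 62 of 2126 peaks, and 23.9 in villi, rank 96 of 2089. Its width was 3377 bp in crypts, where it covered 94.1% of the last coding exon. In villi it was 4030 bp wide and covered 100% of it. In villi the highest score over a member was that of Zfp763, 27.4 at rank 73, whose peak scored 23.2 in crypts. Scores are not scaled between libraries, so a score of one list cannot be set against that of another.

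Zfp981, with 7 fingers at chr4:146502027-146539395 on the plus strand, had no H3K4me3, H3K4me1 or H3K27me3 peak near a start site in either compartment, although it was among the most covered genes. Its body held 5 H3K9me3 peaks with 6422 bp in crypts and 6 with 8404 bp in villi, the highest value of a member there. Zfp936, with 11 fingers at chr7:43114229-43192109 on the plus strand, was like it in these respects, with 6730 bp in crypts, 5064 bp in villi and no peak of the 3 promoter marks.

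**Figure D3:**
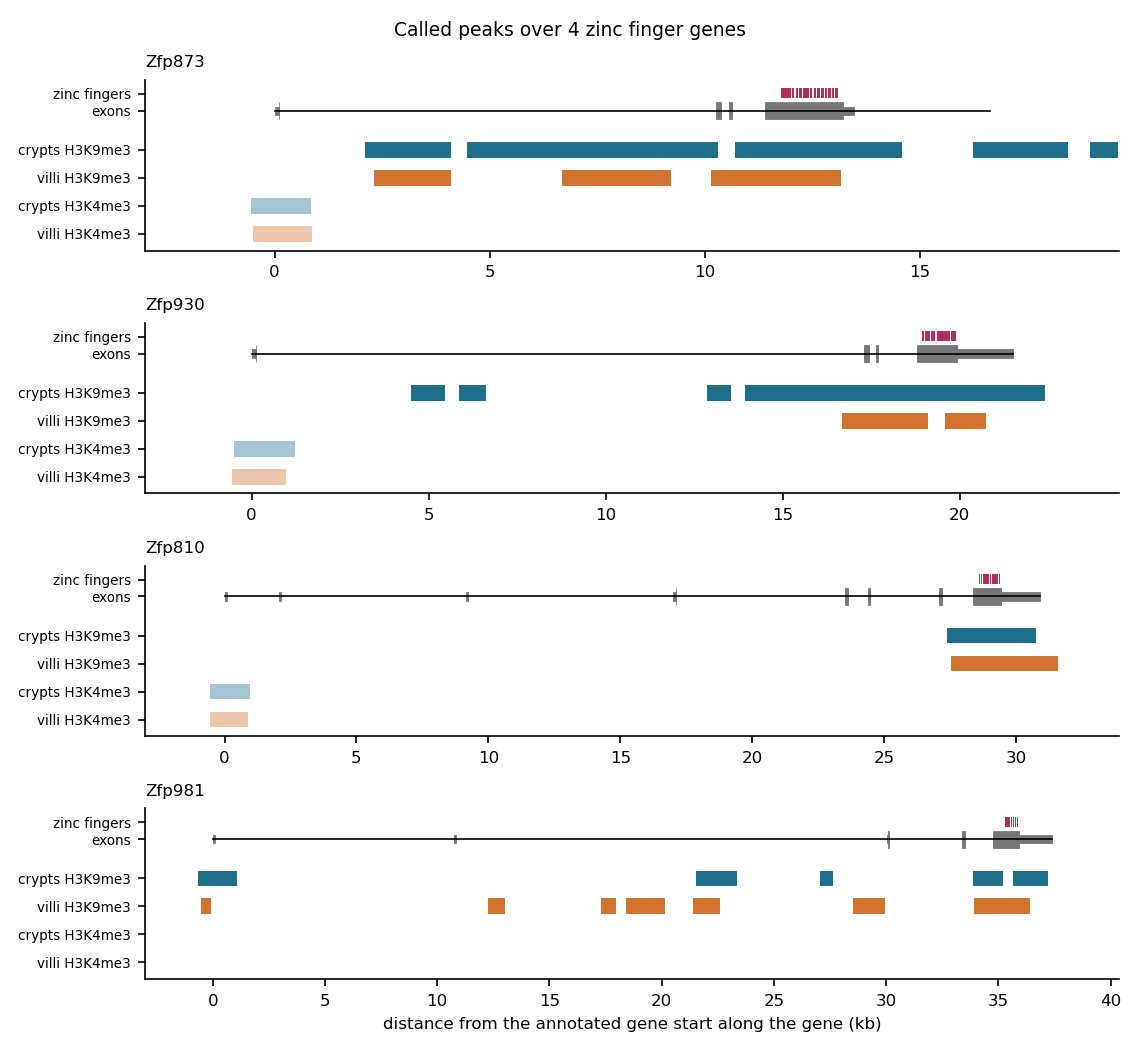
Maps of Zfp873, Zfp930, Zfp810 and Zfp981 drawn to scale by distance from the annotated gene start (kb, horizontal axis), with zinc fingers, exons of the representative transcript (thicker where coding) and the called peaks of H3K9me3 and H3K4me3 in crypts and villi. H3K9me3 lies over at least a part of the finger array in all 4 genes, and H3K4me3 at the start in all but Zfp981.

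On the gene body, the H3K9me3 calls of crypts and villi were largely of the same genes. Of the 40 members with a gene-body peak in either compartment, 29 had one in both, 8 in crypts only and 3 in villi only. This kept 78.4% (62.8 to 88.6%) of the crypts calls in villi, against 50.7% (46.8 to 54.6%) over all protein-coding genes. Of the villi calls, 90.6% (75.8 to 96.8%) were found in crypts, against 61.9% (57.6 to 66.0%). On the last coding exon 74.2% (56.8 to 86.3%) of the crypts calls were kept, against 64.4% (55.9 to 72.0%), with intervals that overlap. At the gene end 52.4% (32.4 to 71.7%) were kept, against 54.5% (45.2 to 63.5%), so the members' higher share was not seen there. Single peaks were shared less often than genes called on the body. Of the 65 peaks over members in crypts, 36 overlapped a villi peak, which is 55.4% (43.3 to 66.8%), and of the 50 in villi 36 overlapped a crypts peak, 72.0% (58.3 to 82.5%). Over the whole lists the shares were 39.4% and 41.6%. Zfp1 to Zfp699 resembled the members. Of their gene-body calls, 69.8% of those in crypts were kept and 93.8% of those in villi were found in crypts. Of their peaks, 58.0% in crypts and 81.6% in villi were shared.

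Peaks over members were wider in crypts than in villi. Together they covered 126208 bp of the members in crypts and 72743 bp in villi, a ratio of 0.58. In both, 56100 bp were covered, 44.5% of the crypts bases and 77.1% of the villi bases. Fewer bases in villi were also covered in Zfp1 to Zfp699, with 105890 bp in crypts and 59660 bp in villi. Over all protein-coding genes it was 1321927 and 1063590 bp. The lower villi value was thus not particular to the members. The median covered length per called member was 2987 bp in crypts, with a range from 381 to 12121 bp, and 1958 bp in villi, from 127 to 8404 bp. Of the 29 members called in both, 23 had more bases covered in crypts, 5 in villi and 1 the same number. Where exactly 1 crypts peak met 1 villi peak over a member, the villi peak was the narrower in 23 of 26 pairs, with a median log2 width ratio of villi over crypts of −0.44 and quartiles of −0.89 and −0.07. Over the whole lists 496 of 776 such pairs were narrower in villi, with a median of −0.16. Width depends on depth and enrichment of the library as well as on the mark, their part in this was not tested, and the lists are not scaled by the spike-in. The study reports cleavage of H3 tails in villi, and attributes to it a lower villi signal of marks near the tail's N-terminus. This cleavage comes with the compartment. Its part in these widths and in the villi calls of H3K9me3, H3K4me3 and H3K4me1 was not tested.

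The genes called in 1 compartment only had between 417 and 3140 bp covered. In crypts only, these were Zfp946 with 3140 bp, Zfp790 with 2489 bp, Zfp935 with 2005 bp, Zfp995 with 1604 bp, Zfp977 with 1285 bp, Zfp975 with 1061 bp, Zfp934 with 652 bp and Zfp984 with 417 bp. Zfp934 and Zfp935 overlap each other and share a peak. In villi only, they were Zfp949 with 2115 bp, Zfp937 with 560 bp and Zfp976 with 555 bp. The Zfp949 peak, chr9:88568565-88570679, scored 21.4 at rank 142 and covered 84.4% of the last coding exon in a gene with 11 fingers. An uncalled region may still carry the mark below the threshold of the peak caller.

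**Figure D4:**
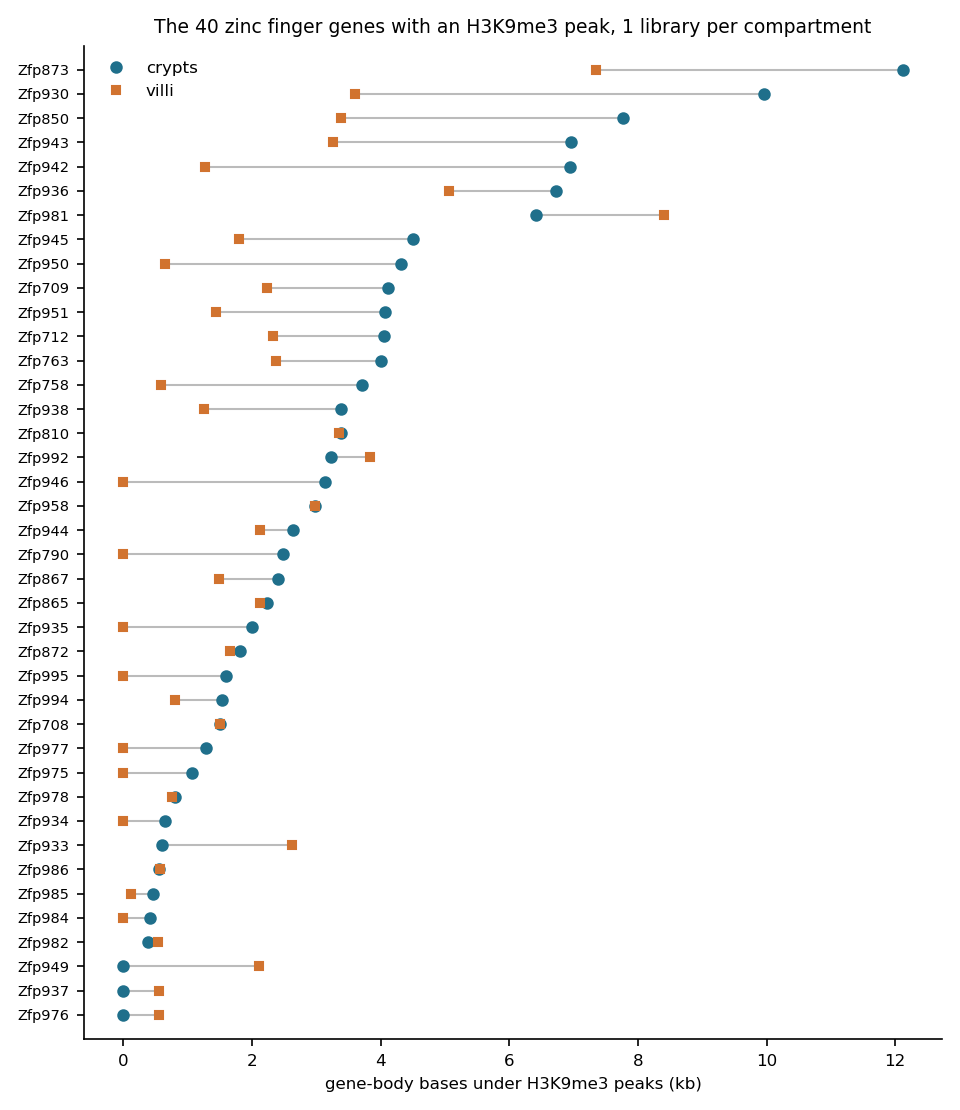
Gene-body bases under H3K9me3 peaks (kb, horizontal axis) for the 40 members with a peak in either compartment, circles for crypts and squares for villi, 1 library each, joined by a line for each gene. In 23 of the 29 members called in both compartments the crypts value is the higher, from Zfp873 with 12121 bp in crypts downward, and Zfp981 and Zfp933 lie the other way.

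Of the other members with the most covered bases, most had more in crypts. In Zfp943 the peaks covered 6957 bp in crypts and 3266 bp in villi, and in its neighbour Zfp942 6947 bp and 1273 bp. The villi peaks of Zfp942 left its last coding exon, wholly covered in crypts, free. Zfp945 had 4504 and 1801 bp, Zfp950 4314 and 643 bp, Zfp709 4112 and 2238 bp, Zfp951 4068 and 1443 bp, Zfp712 4055 and 2331 bp and Zfp763 4005 and 2378 bp. These are all lower in villi. Zfp758 had 3704 and 588 bp, Zfp938 3382 and 1248 bp, Zfp944 2631 and 2121 bp, Zfp867 2397 and 1489 bp, Zfp865 2234 and 2119 bp and Zfp872 1815 and 1659 bp. Zfp958 had 2987 bp in both and Zfp708 1507 and 1504 bp, so the difference between compartments was not general. More bases in villi were covered in Zfp992, with 3226 bp in crypts and 3833 bp in villi, and in Zfp933, with 605 and 2629 bp.

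The peaks over members were also wider and higher in their lists than the peaks outside them, a trait shared with Zfp1 to Zfp699. In crypts their median width was 1593 bp, and 873 bp outside members. In villi it was 1346 bp, and 786 bp outside members. Of the members' peaks, 63.1% in crypts and 68.0% in villi ranked in the upper 50% of the list by score. Over Zfp1 to Zfp699 the median width was 2229 bp in crypts, and 32 of 50 peaks ranked in the upper 50%. In villi it was 1310 bp, with 27 of 38 peaks in the upper 50%. The peaks over Zfp700 to Zfp999 made up 3.06% of the peaks of the crypts list and 2.39% of those of the villi list.

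Near-identical copies limit what can be read from these lists. The authors' aligner reported 1 position per read pair, so a pair from identical copies is counted at one of them. As a measure, the share of 50-base stretches that occur again in the GRCm38 chromosomes was computed, with a median over members of 4.54% for the last coding exon and 7.30% for the windows of 1 kb around start sites. In 28 members 50% or more of the last coding exon was repeated in this sense. Of the members' 1326 fingers, 131 had a sequence also found in another member. Zfp966, Zfp967, Zfp968 and Zfp969 have identical finger arrays, and so do Zfp965 and Zfp973.

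Clusters of members differed from each other in their marks. Clusters are runs of at least 5 members with gaps of at most 1 Mb between neighbours. In the chromosome 17 cluster from Zfp948 to Zfp945, chr17:21567008-22867134, 8 of 13 members had H3K9me3 on the gene body in crypts and 6 in villi, and all 13 had H3K4me3 at a start site in both. On the last coding exon H3K9me3 was called in 8 of them in crypts and 4 in villi. In the chromosome 4 cluster from Zfp990 to Zfp933, chr4:145510759-147848366, 8 of 16 members had H3K9me3 in crypts and 7 in villi, but only 2, Zfp933 and Zfp984, had H3K4me3. Of these members 3 in crypts and 4 in villi had H3K9me3 on the last coding exon. In the chromosome 2 cluster from Zfp831 to Zfp931, chr2:174643534-178078476, no member of 11 had an H3K9me3 peak in either compartment, and 3 had H3K4me3 in crypts and 2 in villi.

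The clusters with few promoter marks are those with the most repeated sequence. The median repeated share of the start site windows was 100% in the chromosome 2 cluster and 69.7% in the chromosome 4 cluster, but 15.1% in the chromosome 17 cluster and 3.53% in members outside the clusters. An absent mark and reads that were placed elsewhere cannot be told apart at these starts. Some members went against the order of the clusters. Zfp831, at chr2:174643534-174710832, has 0% repeated windows and no peak of any of the 4 marks, whereas Zfp971, with 58.0% repeated windows, had H3K4me3 in both compartments.

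**Figure D5:**
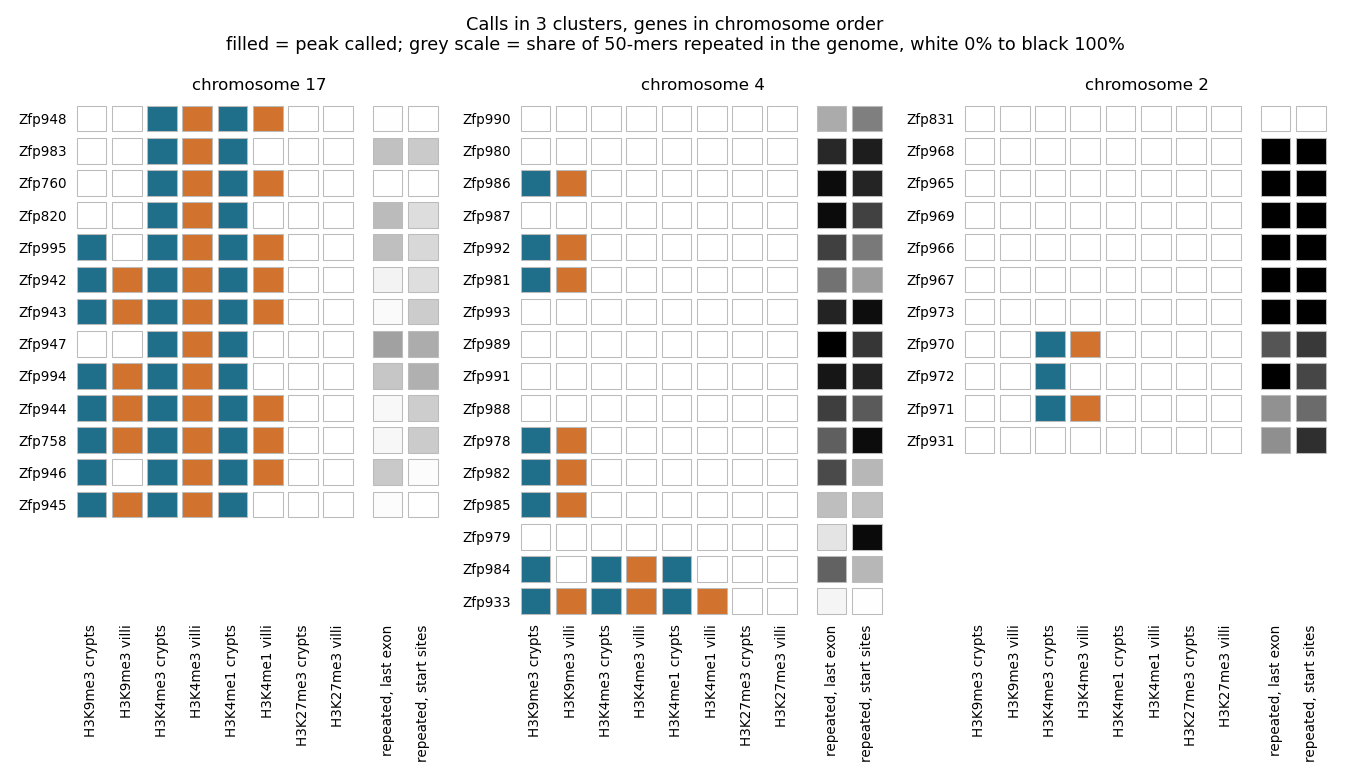
Calls in the clusters on chromosomes 17, 4 and 2, with 1 row per gene in chromosome order, filled squares for a called peak of H3K9me3 on the gene body or of H3K4me3, H3K4me1 or H3K27me3 within 1 kb of a start site, and a grey scale for the share of 50-mers repeated in the genome. All 13 genes on chromosome 17 have H3K4me3 in both compartments, and the rows without any call on chromosomes 4 and 2 are mostly dark in the repeat columns.

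In the other clusters, H3K9me3 was called in a minority of members or in none in each compartment. In the chromosome 7 cluster from Zfp788 to Zfp819, 3 of 8 members were called in crypts and 2 in villi, and in the chromosome 13 cluster from Zfp712 to Zfp738, 2 of 6 in each, Zfp712 and its neighbour Zfp708. The clusters on chromosome 8 from Zfp930 to Zfp866 and on chromosome 17 from Zfp871 to Zfp763 had 1 of 6 each, Zfp930 and Zfp763. In the chromosome 6 cluster from Zfp786 to Zfp775, none of 5 members was called and all 5 had H3K4me3 in both compartments. Its median number of fingers was 9, and a KRAB-like stretch was found in 2 of its members.

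H3K4me3 was called within 1 kb of a start site in 95 of 128 members in crypts, 74.2% (66.0 to 81.0%), and in 94 in villi, 73.4% (65.2 to 80.3%), where 57.7% of all protein-coding genes had it in crypts and 57.9% in villi. The single difference between compartments was Zfp972, whose peak of 381 bp in crypts scored 24.7, rank 13533 of 16489, and had no counterpart in villi. Of the members' crypts calls 98.9% were kept in villi, near the 98.2% over all protein-coding genes and the 98.6% in Zfp1 to Zfp699. In Zfp1 to Zfp699 the share of genes with H3K4me3 was higher, 90.3% (85.9 to 93.4%) in crypts and 89.0% (84.4 to 92.4%) in villi. Without the 25 members whose start site windows are repeated to 50% or more, H3K4me3 was called in 89 of 103 members in each compartment, 86.4%. The shares of the other groups were not recomputed without repeated starts. Of those 25, 6 were called in crypts and 5 in villi. With the top 50% of each list by score, 60 of 128 members were called in crypts and 63 in villi, where all protein-coding genes had 40.9% and 41.7%.

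The H3K4me3 peaks of members were narrower than those over all genes with a peak, as were those of Zfp1 to Zfp699. In crypts their median width was 1496 bp, and 1959 bp over all genes with a peak. In villi it was 1404 bp, and 1863 bp over all genes with a peak. For Zfp1 to Zfp699 the median was 1566 bp in crypts, and 1503 bp in villi. The members' peaks ranked at a median of 44.0% and 39.4% of the list counted from the top, against 33.5% and 33.0%. H3K9me3 on the gene body did not exclude H3K4me3 at the start. Of the 37 members with H3K9me3 in crypts, 28 had H3K4me3, and of the 32 in villi, 24. Of all protein-coding genes with H3K9me3 on the body, 443 of 627 had H3K4me3 in crypts and 326 of 514 in villi. Both marks together were called in 21.9% and 18.8% of all members, against 2.03% and 1.49% of all protein-coding genes. That contrast carries the members' higher share of H3K9me3 calls and is not a measure of how often the marks occur together. Zfp809, which recognises the primer binding site of murine leukaemia viruses and recruits TRIM28 to them, had H3K4me3 in both compartments and no H3K9me3 peak.

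H3K4me1 was called near a start site in 78 members in crypts, 60.9% (52.3 to 69.0%), and in 68 in villi, 53.1% (44.5 to 61.6%), where all protein-coding genes had 57.9% and 56.1%. The members' shares lay near this background, but this depended on the setting. Without the members whose start site windows are repeated to 50% or more, 75.7% of 103 members had H3K4me1 in crypts and 66.0% in villi, where the share of all genes was not recomputed. With the top 50% of each list by score it was 37 of 128 members in crypts and 27 in villi, below the 35.1% and 36.0% of all protein-coding genes. Both marks were called in 75 members in crypts and 65 in villi, 58.6% and 50.8%, against 52.6% and 50.1% of all protein-coding genes. H3K4me3 without H3K4me1 was found in 20 and 29 members, 15.6% (10.3 to 22.9%) and 22.7% (16.3 to 30.6%), against 5.16% and 7.84% of all protein-coding genes, and in 11.4% and 16.9% of Zfp1 to Zfp699. Between compartments 61 members were called in both, 17 in crypts only and 7 in villi only. Of the crypts calls 78.2% (67.8 to 85.9%) were kept in villi, and over all protein-coding genes 90.2% (89.6 to 90.7%). With the top 50% of each list by score, 18 of the 37 members called in crypts were also called in villi. The share kept over all genes was not recomputed at that setting. H3K4me1 without H3K4me3 was found in Zfp750, a regulator of epidermal differentiation, and in Zfp819 and Zfp872, in both compartments. These 3 members are 2.34% of 128, and of all protein-coding genes it was 5.32% in crypts and 6.06% in villi.

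Promoters of RefSeq (GRCm38.p6; 250 bases before to 50 after a start) were found for 109 members, with 127 entries. They are shown because start sites with and without H3K4me3 differed in CG dinucleotides, which are in capitals. Zfp810, chr9:22307589-22307888 on the minus strand, and Zfp712, chr13:67061121-67061420 on the minus strand, had H3K4me3 in both compartments. Zfp980, chr4:145670447-145670746 on the plus strand, had no H3K4me3, and 88.6% of its start site windows are repeated sequence.
Zfp810 promoter: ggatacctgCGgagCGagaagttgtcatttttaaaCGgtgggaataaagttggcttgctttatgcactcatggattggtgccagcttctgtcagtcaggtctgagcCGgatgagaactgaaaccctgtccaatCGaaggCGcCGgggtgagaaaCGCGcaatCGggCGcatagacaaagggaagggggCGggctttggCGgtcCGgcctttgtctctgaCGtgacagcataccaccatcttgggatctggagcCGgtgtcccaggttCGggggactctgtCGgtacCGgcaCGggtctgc
Zfp712 promoter: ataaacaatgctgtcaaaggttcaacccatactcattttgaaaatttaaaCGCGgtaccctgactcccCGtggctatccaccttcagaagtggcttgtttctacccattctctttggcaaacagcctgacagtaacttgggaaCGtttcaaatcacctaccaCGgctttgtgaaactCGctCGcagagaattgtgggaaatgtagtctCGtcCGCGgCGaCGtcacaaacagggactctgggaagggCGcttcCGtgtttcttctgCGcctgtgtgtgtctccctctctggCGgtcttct
Zfp980 promoter: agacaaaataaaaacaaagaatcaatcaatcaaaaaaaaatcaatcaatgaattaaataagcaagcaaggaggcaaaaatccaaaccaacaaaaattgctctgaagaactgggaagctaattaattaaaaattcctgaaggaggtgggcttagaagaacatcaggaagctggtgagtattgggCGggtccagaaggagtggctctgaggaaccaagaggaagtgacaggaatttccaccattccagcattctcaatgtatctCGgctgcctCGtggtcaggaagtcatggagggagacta

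The motif searched was CG, which reads the same on both strands, and 94.6% of all RefSeq promoters of this length hold at least 1. The Zfp810 promoter held 20, the Zfp712 promoter 16 and the Zfp980 promoter 3. The 98 entries with H3K4me3 within 1 kb in both compartments had a median of 10.5, from 3 to 54, and the 27 entries with none in either a median of 5.00, from 2 to 22, so the ranges overlap. The ratio of CG observed to that given by the base content had medians of 0.56 and 0.29, and a median of 0.38 over all RefSeq promoters. A ratio of at least 0.6 was found in 46 of the 98 entries, in 5 of the 27 and in 35.8% of all RefSeq promoters. CG content and repeated sequence differ together here, and their parts in the calls were not tested.

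H3K27me3 was called near a start site in 5 members in each compartment, 3.91% (1.68 to 8.82%), below the 13.1% of all protein-coding genes in crypts and 16.1% in villi. Zfp811, Zfp853, Zfp800 and Zfp872 had it in both, Zfp821 in crypts only and Zfp819 in villi only. Over all protein-coding genes the number of genes was higher in villi, 3513 against 2860 in crypts, and in the members it was the same. Zfp811, at chr17:32795676-32809931, and Zfp853, at chr5:143287038-143293623, had no H3K4me3 or H3K4me1 near a start.

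The H3K27me3 peak at the start of Zfp811 spanned 1329 bp in crypts and 1183 bp in villi, at rank 584 of 7611 and rank 1424 of 13797. At Zfp853 peaks of 4105 and 2510 bp in crypts faced a single peak of 10322 bp in villi over the whole gene. Zfp800, at chr6:28239927-28398005, had both H3K4me3 and H3K27me3 peaks in each compartment, but in villi at different starts. H3K27me3 lay at the gene start, over 5085 bp in crypts (rank 3505) and 3934 bp in villi (rank 1002). The strongest H3K4me3 lay at an internal start, chr6:28260340-28262835 in crypts and chr6:28261454-28262959 in villi. At the gene start H3K4me3 was called in crypts only, with a peak of 1026 bp. Zfp872, at chr9:22188090-22202123, was the member with H3K27me3 and H3K9me3 together, the first at its start and the second over 67.1% of its last coding exon in crypts and 61.3% in villi. The peak of Zfp821 in crypts spanned 1726 bp with a score of 12.6, rank 5170 of 7611. That of Zfp819 in villi spanned 980 bp with a score of 15.2, rank 6296 of 13797. The lowest score of both lists is 10.00.

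No peak of H3K4me3, H3K4me1 or H3K27me3 lay near any start site of 28 members in crypts and 29 in villi, against 32.6% and 30.9% of all protein-coding genes, so as a share of 128 members this was below the background. The 28 were the same genes in both compartments, and Zfp972 joined them in villi. By chromosome, 14 lay on chromosome 4, 8 on chromosome 2 in crypts and 9 in villi, 2 on chromosome 7 and 1 each on chromosomes 8, 10, 11 and 14. In crypts 8 of the 28 had H3K9me3 on the gene body, and in villi 7 of the 29.

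Of the genes that write, read or remove H3K9 methylation, all 22 listed had H3K4me3 near a start site in both compartments, where 57.7% of all protein-coding genes had it in crypts and 57.9% in villi. They include Trim28, the corepressor that KRAB domains bind, Setdb1, the methyltransferase it recruits, Suv39h1 and Suv39h2, which methylate H3K9 in constitutive heterochromatin, Cbx1, Cbx3 and Cbx5, the HP1 proteins that bind the mark, and Kdm4a, Kdm4b, Kdm4c and Kdm4d, which demethylate it. H3K4me1 was called in 19 of them in crypts and 17 in villi, against 57.9% and 56.1% of all protein-coding genes, and H3K27me3 in none in either, against 13.1% and 16.1%. A gene-body H3K9me3 peak was called in none in crypts and in villi only in Atf7ip, a partner of SETDB1, against 2.87% and 2.35% of all protein-coding genes.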

How the data were processed

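Peak lists of 8 libraries were used, 1 per compartment and mark. The deposited lists have no header and give position and a −log10 p-value for each peak, as its lowest value of 10.00 and the p-value threshold in the study's methods show. The authors aligned read pairs with Bowtie 1.1.2, reporting 1 position per pair, removed duplicates and called peaks with MACS2 2.1.1 (versions as in the submitters' processing notes). Amounts of chromatin and the beads differ between the study's methods and the labels. Peak numbers have gaps, so the lists were reduced by a step not given in the sources used here. The 2 H3K9me2 lists and the inputs were not used here.

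Calls were overlaps of at least 1 bp with genes of GENCODE M21, windows of 1 kb around start sites of protein-coding transcripts, and the representative transcript with the longest coding sequence. Python 3.11.15, NumPy 2.4.6, SciPy 1.17.1 and Matplotlib 3.10.9 were used. Fingers were matches to C-2-C-12-H-3 to 5-H in translations of GENCODE coding sequences, which replaced a protein table, and KRAB-like stretches came from a pattern that can miss divergent domains. The scripts were tested on simulated data with known answers. Shares carry 95% Wilson intervals, which cover counting error only. The counts of members called per mark and region were recomputed under other peak thresholds, windows and overlaps; the other counts were not. Members and gene lists were chosen with earlier results of these data known. Named genes were the 25 members with the most H3K9me3-covered bases (crypts plus villi), those with H3K4me3 in 1 compartment only and those with H3K27me3; others in the text, such as Zfp809 and Zfp949, were chosen after their values were seen.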

Additional observations from a re-analysis of the deposited data

How the results depend on the processing

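The counts of members called per mark and region, and no other counts, were recomputed under 9 planned settings and 1 chosen after seeing the data, which leaves out members with 50% or more repeated sequence. Of 132 values, 123 stayed within 1.5 times the reported count. With the top 50% of each list by score, H3K4me3 near start sites was called in 60 members in crypts, where all protein-coding genes had 40.9%, and in 58 in both compartments, and H3K4me1 in 37 in crypts, 27 in villi and 18 in both, where all protein-coding genes had 35.1% in crypts and 36.0% in villi. By construction this setting keeps fewer peaks. With at least 200 bp of overlap, H3K9me3 at the gene end was called in 19 members in crypts, 14 in villi and 7 in both. All protein-coding genes had 0.453% in crypts and 0.362% in villi at this setting. At the main setting of 1 bp it was 21, 17 and 11 members. With the gene end widened to 5 kb H3K9me3 was called in 36 members in crypts, 31 in villi and 27 in both. This was 1.30% of all protein-coding genes in crypts and 1.16% in villi, and the larger window holds more peaks. No paired analysis was possible because each group holds 1 library. For the same reason no replicate could be left out. Depth is unknown, so a region without the mark cannot be told apart from one that carries it below the threshold.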
